A study of Mus musculus with 12 samples.

Results

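mmu-miR-99a, mmu-miR-99b and mmu-miR-100, the 3 mouse members of the miR-99 family, and mmu-miR-125a-5p were followed across 12 microarrays. The 4 miRNAs were taken by their exact names on the array out of 611 mouse miRNAs measured. Mouse embryonic fibroblasts of the C57BL/6 background were either wild type (XBP1WT) or lacked XBP1 (XBP1KO), which switches on genes of the unfolded protein response. Each genotype was measured untreated, after 12 h and after 24 h in 2 ug/mL tunicamycin, a drug that blocks N-linked glycosylation and so causes endoplasmic reticulum stress. Each of the 6 groups held 2 arrays from what the design text calls independent experiments. The labels do not say how many embryos or lines the cells came from, so p-values measure the spread between these arrays. All tunicamycin groups are compared with 1 untreated group of their genotype, so the 12 h and 24 h comparisons share controls. These arrays do not measure Xbp1 mRNA, and the knockout was not checked here.

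A miRNA finds its target mRNAs mainly through its seed, bases 2 to 8 from the 5′ end. The miR-99 family shares 1 seed and is known for restraining mTOR, whereas miR-125a belongs to the miR-125 family, the vertebrate relatives of worm lin-4. In mouse these miRNAs lie in clusters that each join a miR-99 member, a let-7 member and a miR-125 member. Mir99b, Mirlet7e and Mir125a lie together on chromosome 17 within the gene Spaca6. Mir100, Mirlet7a-2 and Mir125b-1 lie on chromosome 9 within the host gene Mir100hg, and Mir99a, Mirlet7c-1 and Mir125b-2 lie on chromosome 16.

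The mature sequences below, from RefSeq annotation of GRCm38.p6, are shown because they set which members share a seed and how little separates the family. The seed is in capitals, and let-7e and miR-125b-5p are added as the cluster neighbour and the sister of miR-125a-5p.
miR-99a: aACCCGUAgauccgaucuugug
miR-99b: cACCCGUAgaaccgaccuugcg
miR-100: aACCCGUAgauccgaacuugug
miR-125a-5p: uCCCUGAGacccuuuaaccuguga
let-7e: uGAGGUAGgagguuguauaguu
miR-125b-5p: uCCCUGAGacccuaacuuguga
All 4 members matched an entry, the first 3 as the 5p arm. miR-99a is at chr16:77598940-77598961, miR-99b at chr17:17830194-17830215, miR-100 at chr9:41531437-41531458 and miR-125a-5p at chr17:17830817-17830840, all on the + strand. Counted from the 5′ end, miR-99a and miR-100 differ over their 22 bases by U16A alone. miR-99a and miR-99b differ by A1C, U11A, U16C and U21C, so miR-99b is the member with a changed first base and the same seed. miR-125a-5p and miR-125b-5p are identical over their first 13 bases.

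A level is the log2 of the summed probe signal of a miRNA after each array was scaled to the same 75th percentile, with a floor at 3.33. Levels of different miRNAs come from different probes and are not set against each other here. The untreated arrays were all on 1 slide and the tunicamycin arrays all on another, and the effects of slide and of tunicamycin cannot be told apart. Before scaling the tunicamycin arrays were also dimmer, with a 75th percentile of 134 to 711 against 871 to 1594 on the untreated arrays, and the part of brightness in the differences below was not tested. The knockout 24 h replicate 2 array stood apart. Over the 95 miRNAs detected on all arrays, each taken as its deviation from its mean over the 12 arrays, it correlated at 0.10 with its own replicate, where the other 5 pairs of replicates correlated at 0.51 to 0.97. There were 9 miRNAs, miR-99a among them, that separated the genotypes by over 0.7 on the log2 scale untreated and at 12 h. Of these it lay nearer wild type for 3, including miR-99a, and nearer knockout for 6. Its replicate lay nearer wild type for 1 and nearer knockout for 8. As miR-99a is among the 9, this count is not independent of the miR-99a results with that array left out. The results for the knockout 24 h group are given with and without the replicate 2 array. Of 7 fibroblast miRNAs measured, 5 were detected on every array, miR-143 on 9 and miR-145 on 1. The 7 summed to a scaled signal of 18820 to 26560 on untreated, 11830 to 14660 on 12 h and 13550 to 20180 on 24 h arrays. Of other cell types, 0 of 7 epithelial, 0 of 5 blood and 0 of 1 hepatic miRNAs were detected on any array, 1 of 2 endothelial on 1 array, and 2 of 3 neural, miR-9 on 2 arrays and miR-128 on 4. The 4 muscle miRNAs summed to 2.17 to 10.6 untreated, 32.8 to 104 at 12 h and 3.85 to 6.79 at 24 h. Of these miR-206 was detected on 6 arrays, including all 4 at 12 h, and miR-1, miR-133a and miR-133b on none. The part of these shifts in the 12 h results was not tested.

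**Figure D1:**
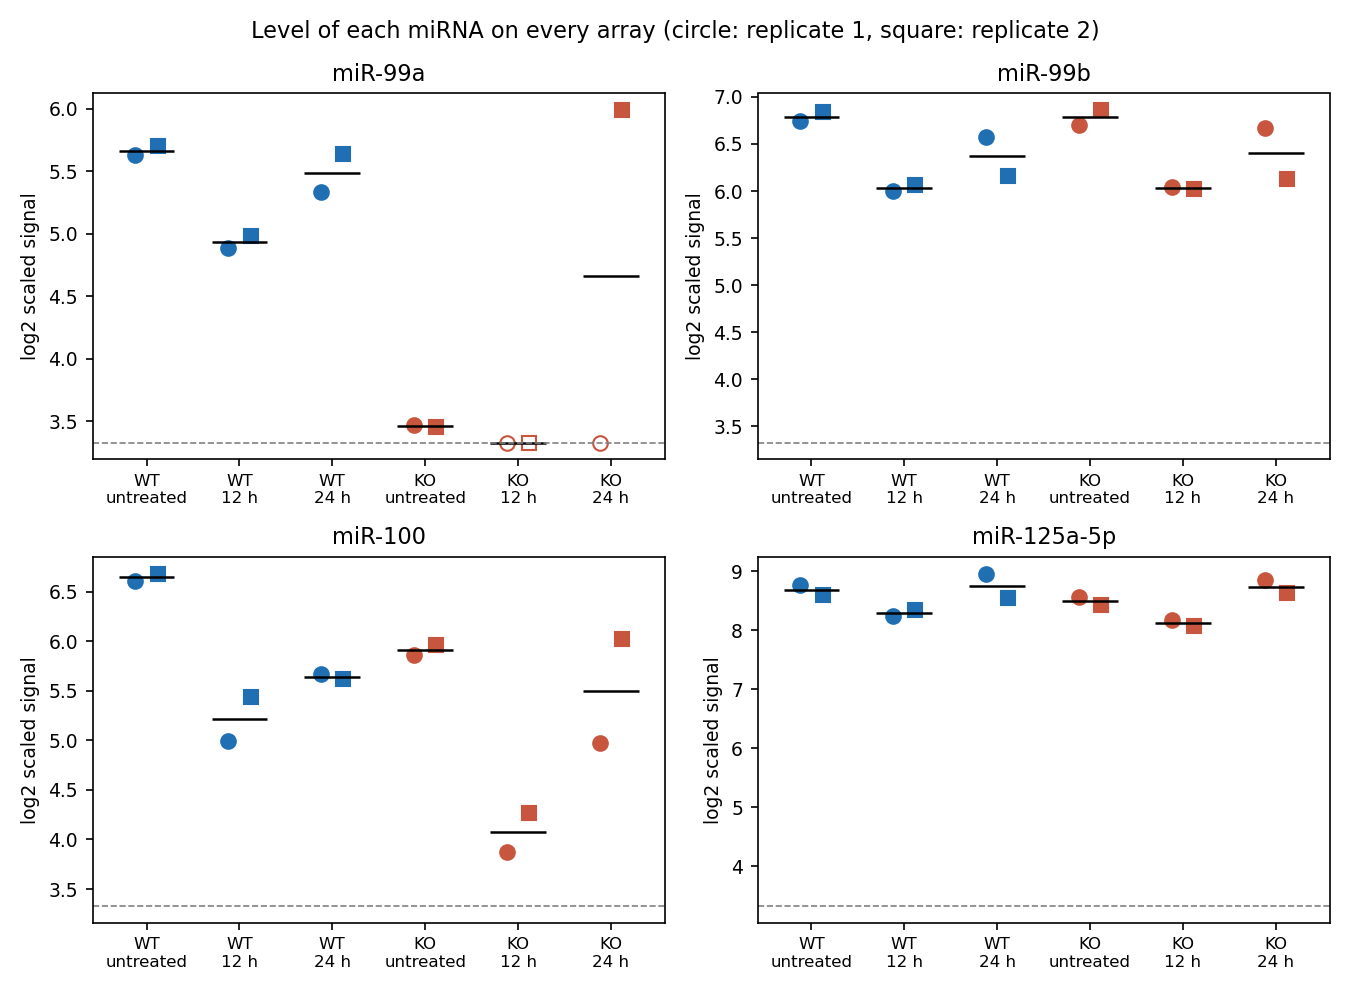
Log2 scaled signal (vertical axes, each with its own range) of the 4 miRNAs in the 6 groups; circles are replicate 1, squares replicate 2, open symbols arrays where the miRNA was not detected, horizontal bars the group mean and the dashed line the floor at 3.33. miR-99a is near the floor on knockout arrays except knockout 24 h replicate 2 at 5.99, and miR-100 is lowest on the knockout 12 h arrays at 3.87 and 4.27.

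The tunicamycin comparisons asked whether the members changed under endoplasmic reticulum stress. After 12 h, miR-100 and miR-99b fell in both genotypes, a direction that turned under normexp background correction with an offset of 50 and, for miR-100, in the deposited totals. miR-99a and miR-125a-5p did not pass the test, though each did under some other settings or with some arrays left out. In the fit of all 12 arrays no member passed it at 24 h and no rise passed at either time. Under 1 of 14 other settings, normexp with an offset of 50, rises of miR-99a passed at both times in both genotypes. At 12 h they were 0.89 in wild type and 0.85 in knockout (limma adjusted p = 0.015 and 0.025). A rise of miR-100 at 24 h in knockout also passed there (limma adjusted p = 0.026). The median of all tested miRNAs moved up as well in each of these comparisons.

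miR-100, the member encoded within Mir100hg, ranged over 2.81 on the log2 scale across the arrays. In wild type it was at 6.61 and 6.68 untreated, 4.99 and 5.44 at 12 h, and 5.67 and 5.62 at 24 h. Both tunicamycin times lay below both untreated arrays, and 24 h lay above 12 h. In knockout it was at 5.86 and 5.96 untreated, 3.87 and 4.27 at 12 h, and 4.98 and 6.02 at 24 h. Here the 12 h arrays were the lowest of all 12 and the 24 h arrays straddled the untreated ones. The limma fit gave a fall at 12 h of -1.43 (SE 0.36, adjusted p = 0.014) in wild type and of -1.84 (SE 0.36, adjusted p = 0.0053) in knockout. These are 2.70-fold and 3.58-fold lower scaled signals. At 24 h the difference was -1.005 (SE 0.36, adjusted p = 0.12) in wild type and -0.41 (SE 0.36, adjusted p = 0.66) in knockout. Without the knockout 24 h replicate 2 array the wild type difference at 24 h was -0.96 and passed (adjusted p = 0.020), as it did without the knockout 24 h replicate 1 array (adjusted p = 0.035). In knockout it was -0.85 (adjusted p = 0.068) without replicate 2 and -0.086 (adjusted p = 1) without replicate 1.

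miR-99b, the family member encoded with let-7e and miR-125a, fell by a nearly equal amount in the 2 genotypes. Its wild type levels were 6.74 and 6.84 untreated, 6.00 and 6.06 at 12 h, and 6.58 and 6.16 at 24 h. Its knockout levels were 6.70 and 6.86 untreated, 6.05 and 6.02 at 12 h, and 6.67 and 6.13 at 24 h. The 4 arrays at 12 h, at 6.00 to 6.06, were the lowest of the 12. The 12 h difference was -0.76 (SE 0.21, limma adjusted p = 0.023) in wild type and -0.75 (SE 0.21, limma adjusted p = 0.023) in knockout. At 24 h it was -0.42 (adjusted p = 0.25) and -0.38 (adjusted p = 0.43), with all 4 arrays below all 4 untreated ones. With the knockout 24 h replicate 2 array left out, the knockout value at 24 h was -0.021 (adjusted p = 1) and the wild type value -0.38 (adjusted p = 0.058).

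miR-99a, which differs from miR-100 by 1 base, was detected on 9 of 12 arrays. Wild type levels were 5.62 and 5.70 untreated, 4.88 and 4.98 at 12 h, and 5.33 and 5.63 at 24 h. The 12 h arrays lay below the untreated ones, with a difference of -0.73 (SE 0.73, adjusted p = 0.45). The fit shares 1 SE per miRNA over all groups, and the replicates lay farthest apart in knockout at 24 h, at 3.33, not detected, and 5.99. Without the array at 5.99 the 12 h difference in wild type was -0.68 (SE 0.14, adjusted p = 0.0070) and passed, and without the other 24 h knockout array it was -0.86 (adjusted p = 0.0014). In knockout, miR-99a was at 3.47 and 3.45 untreated and was not detected on either 12 h array. A fall there has only a lower bound, 1.24-fold. For it, each array without detection was given the lowest signal of any detected miRNA on that array, or miR-99a's own signal if higher. A miRNA that is not detected can lie above that lowest signal, so such a bound is not strict.

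miR-125a-5p had the smallest spread after miR-99b. Its levels were 8.76 and 8.59 untreated, 8.25 and 8.35 at 12 h, and 8.96 and 8.55 at 24 h in wild type. In knockout they were 8.57 and 8.43 untreated, 8.18 and 8.07 at 12 h, and 8.86 and 8.63 at 24 h. The 12 h arrays were the lowest of each genotype, but the differences of -0.38 (SE 0.15, limma adjusted p = 0.080) in wild type and -0.37 (SE 0.15, limma adjusted p = 0.082) in knockout missed the threshold. They passed it under other scalings, at -1.50 and -1.25 after quantile normalization (limma adjusted p = 0.00061 and 0.0010) and at -0.96 and -1.21 with the percentile over all mouse miRNAs (limma adjusted p = 0.038 and 0.013). They also passed with the replicate number as a block (limma adjusted p = 0.0431 and 0.0475), from the software's totals, and, in knockout, from the deposited table. Both passed without either wild type 24 h array, at limma adjusted p from 0.0370 to 0.0388, and the knockout one without knockout 24 h replicate 1 (-0.66, limma adjusted p = 0.0303). At 24 h the differences were 0.07 (95% interval -0.29 to 0.44) and 0.24 (95% interval -0.12 to 0.61), the latter 0.44 (limma adjusted p = 0.080) without the knockout 24 h replicate 2 array.

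Changes were common at 12 h. Of the 256 miRNAs tested, 50.8% passed in wild type and 49.2% in knockout, against 2 of 4 members in each. Falls alone made up 25.4% in both genotypes. The median difference of the members was -0.74 in wild type and -0.56 in knockout, beside -0.09 and 0 over all tested miRNAs and -0.42 and -0.44 over the 95 detected on every array. At 24 h, 17.6% passed in wild type and 14.1% in knockout, against 0 of 4 members by limma. At an unadjusted limma p under 0.05, the number of tested miRNAs was 77 in wild type, with miR-100 among them at a limma p of 0.027, and 57 in knockout, with no member among them.

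The direction of the falls at 12 h rests on how background was treated. With normexp background correction and an offset of 50, miR-100 was higher by 0.44 in wild type and 0.40 in knockout, and miR-99b by 0.44 and 0.20. Under that setting the median of all tested miRNAs also moved up, by 1.23 and 0.89, so that all 4 members lay below the median in wild type, miR-99a at 0.89 and miR-125a-5p at -0.14. The offset was added to each probe before scaling, while the unscaled probe sums of miR-100 were 168 to 207 on untreated and 8.41 to 48.3 on tunicamycin arrays. With an offset of 1 the differences were -0.18 and -0.75 for miR-100 and -0.0002 and -0.44 for miR-99b, and none passed. Scaling moved the size of the miR-99b fall, to -1.55 and -1.57 after quantile normalization and to -1.33 and -1.59 with the percentile over all mouse miRNAs, each past the threshold. Leaving out any one of the arrays compared also left miR-99b short of the threshold, at limma adjusted p from 0.0706 to 0.115 in wild type and from 0.0623 to 0.131 in knockout. miR-100 in wild type missed it without untreated replicate 1 (adjusted p = 0.0624), untreated replicate 2 (adjusted p = 0.0760) or 12 h replicate 1 (adjusted p = 0.0667). In knockout miR-100 passed whichever array was left out.

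**Figure D2:**
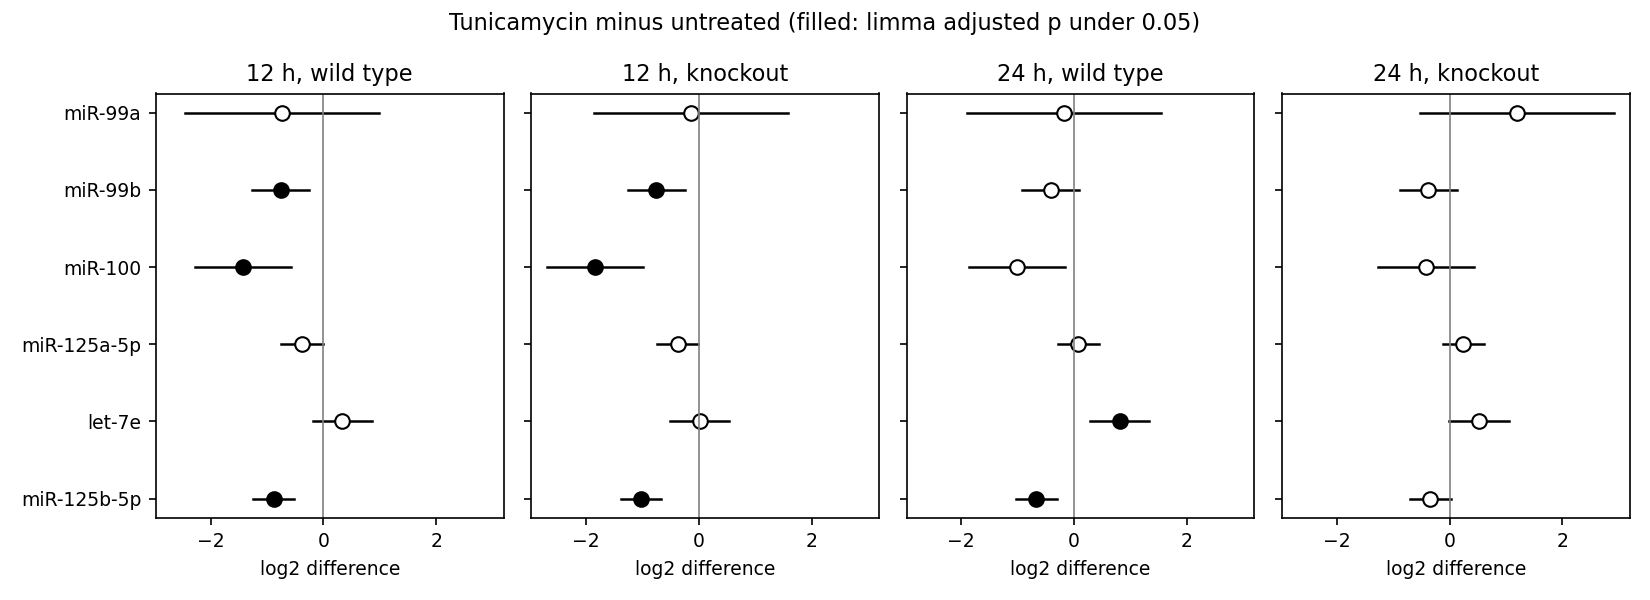
Log2 difference, tunicamycin minus untreated (horizontal axis), for the 4 miRNAs and for let-7e and miR-125b-5p, with 95% intervals of the limma fit to 12 arrays; filled points have an adjusted p under 0.05. miR-100 and miR-99b are filled at 12 h in both genotypes, at -1.43 and -0.76 in wild type (both above 0 under normexp with an offset of 50), and let-7e is filled above 0 at 24 h in wild type, at 0.81.

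The test whether the response differed with XBP1 was the interaction of genotype and treatment. None of the 4 members passed at 12 h or 24 h, where 5.86% and 4.69% of tested miRNAs did. At an unadjusted limma p under 0.05 there were 37 and 30 tested miRNAs and no member. For miR-99b the response in wild type minus that in knockout at 12 h was -0.0064, with a 95% interval from -0.72 to 0.71. For miR-125a-5p it was -0.0064 (95% interval -0.52 to 0.51), and for miR-100 0.41 (95% interval -0.80 to 1.61). miR-99a gave -0.60 with a 95% interval from -3.03 to 1.83, which at this number of arrays bounds little. Without the knockout 24 h replicate 1 array, which leaves the array that stands apart to represent its group, the 24 h interaction of miR-99a was -2.59 (adjusted p = 0.00031). Without replicate 2 instead it was 0.046 (adjusted p = 1).

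Members were compared with each other through the change of their within-array difference from untreated to tunicamycin, with the 12 h and 24 h arrays pooled. The test was an exact two-sided permutation over arrays within genotype, adjusted over 6 pairs. The response differed for 3 of 6 pairs. The response of miR-100 minus that of miR-125a-5p was -1.06 (exact permutation p = 0.00889, adjusted p = 0.0178), and the 4 separate values ran from -1.47 at 12 h in knockout to -0.65 at 24 h in knockout. The response of miR-99b minus that of miR-125a-5p, its own cluster neighbour, was -0.47, with -0.38 at 12 h in both genotypes, -0.49 at 24 h in wild type and -0.62 at 24 h in knockout. That permutation p of 0.00444, adjusted to 0.0133, is the smallest the design allows. For miR-99a minus miR-100, 1 base apart, the value was 1.21 at the same p, though miR-99a was at the floor on 3 knockout arrays and cannot fall below it. With the floor at 1 that value was 0.074 (adjusted p = 0.93), and it came to 0.70 at 12 h and 0.82 at 24 h in wild type, where miR-99a was detected throughout. Under quantile normalization 0 of 6 pairs passed, and the lowest adjusted permutation p was 0.080, for miR-100 and miR-125a-5p at -0.79. Normexp with an offset of 50 turned that pair to 0.51 and the pair of miR-99b and miR-125a-5p to 0.37, both past the threshold at an adjusted p of 0.0107. The pair of miR-100 and miR-125a-5p missed the threshold without wild type untreated replicate 1, replicate 2 or knockout untreated replicate 2, each at an adjusted p of 0.053.

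Each member was read by 2 probes of 10 spots each, named here the brighter and the dimmer after their signal. At 12 h in wild type the dimmer probe moved lower than the brighter one for all 4 members, with a dimmer minus brighter difference from -0.93 to -0.45. For miR-100 the brighter probe differed by -1.23 and the dimmer by -1.92, and in knockout by -1.64 and -2.35. Both probes of miR-99b were lower at 12 h as well, at -0.64 and -1.09 in wild type, and the knockout values were -0.65 and -1.03. For miR-125a-5p the probes parted in direction at 24 h. In wild type the brighter was at 0.28 and the dimmer at -0.82, and in knockout they were at 0.44 and -0.62. miR-99a was not detected on 3 knockout arrays, so its probe differences in tunicamycin-treated knockout cells carry no order. A tilt in the same direction, mostly smaller, held for most of the 92 miRNAs with 2 probes that were detected on every array. The dimmer probe was lower in 77.2% of them at 12 h in wild type and in 85.9% at 24 h, by a median of -0.11 and -0.22. At 12 h in wild type their lower quartile was -0.31, and all 4 members lay below it. At 24 h in wild type it was -0.44, beside -1.10 to -0.43 for the members. In the untreated genotype comparison the probes of a miRNA lay closer together, with a dimmer minus brighter difference from -0.28 to -0.01 for the members. The untreated difference of miR-100 was -0.72 by the brighter and -0.77 by the dimmer probe, and over the 92 miRNAs the median gap was 0.0096.

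**Figure D3:**
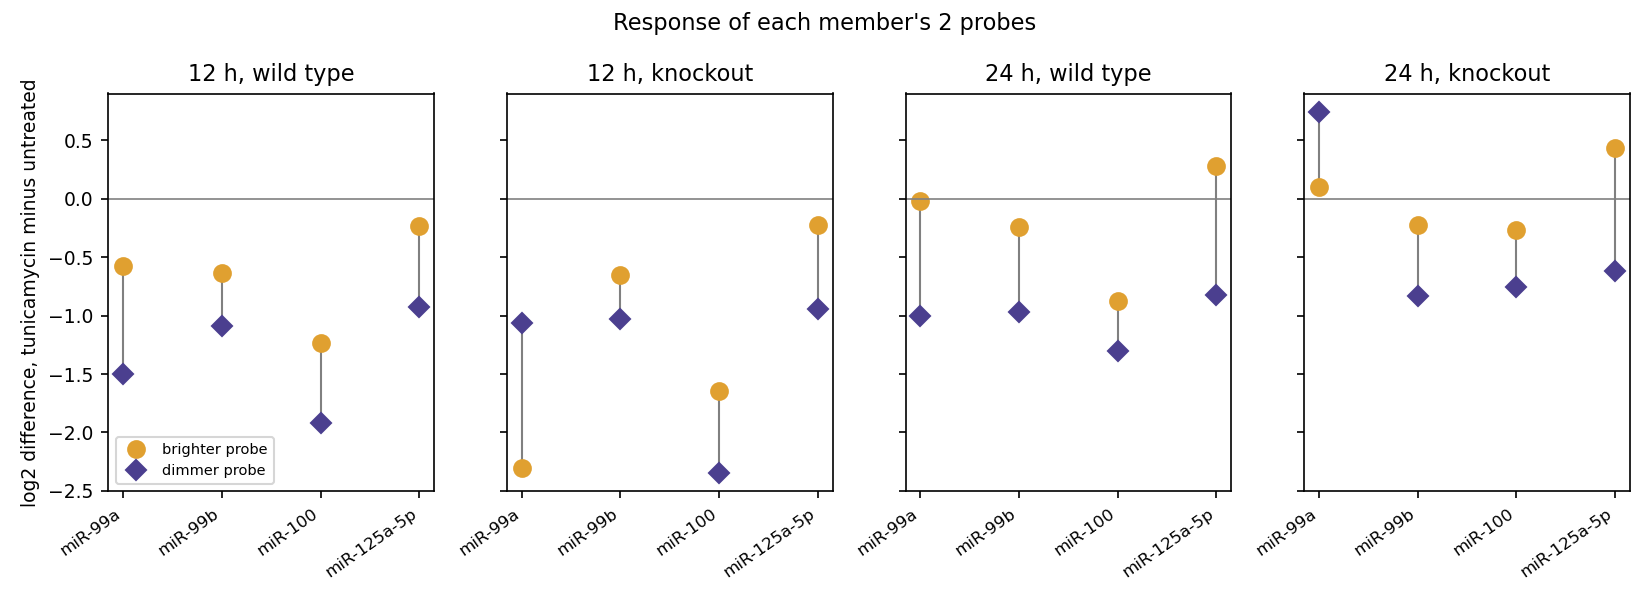
Log2 difference, tunicamycin minus untreated (vertical axis), for the brighter (circles) and dimmer (diamonds) probe of each of the 4 miRNAs, in 4 panels by time and genotype, with probe signals floored at 1. In both wild type panels every diamond lies below its circle, and at 24 h the 2 probes of miR-125a-5p lie at 0.28 and -0.82, on either side of 0.

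Genotype comparisons asked whether the members depended on XBP1 without or with stress. The mean of miR-99a was lower in knockout in each condition, by a log2 difference of -2.20 untreated, and miR-100 by -0.74 untreated and -1.14 at 12 h, but over all 12 arrays none of these passed. miR-99b and miR-125a-5p differed little. The shares of tested miRNAs past the threshold were 12.5% untreated, 5.08% at 12 h and 7.81% at 24 h, against 0 of 4 members in each by limma. Without adjustment, limma gave 54, 41 and 58 tested miRNAs a p under 0.05, among them miR-99a untreated and miR-100 at 12 h.

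For miR-99a the untreated wild type arrays read 5.62 and 5.70 against knockout arrays at 3.47 and 3.45, well apart, yet the difference of -2.20 had an SE of 0.73 and an adjusted p of 0.11. Within each scan of the slide it was -2.16 and -2.25. Under 14 other settings with all arrays kept, the untreated difference ran from -2.20 to -0.83. It passed under none of them (limma adjusted p from 0.054 to 0.59). The untreated knockout levels of 3.47 and 3.45 also lay just above the floor. At 12 h miR-99a was detected on both wild type arrays and neither knockout array. With the knockout arrays at the floor the fit gave -1.60 (limma adjusted p = 0.37). The lower bound, taken by the rule given above and not strict, was 3.43-fold. At 24 h the first scan gave -2.002 and the second 0.35. Without the knockout 24 h replicate 2 array, miR-99a passed in all 3 conditions, at -2.19 untreated (SE 0.14, adjusted p = 0.00015), and at 12 h (adjusted p = 0.00079) and 24 h (adjusted p = 0.00050). In that fit it was not detected on any knockout tunicamycin array and was set to the floor there. The differences under tunicamycin thus have only lower bounds by the same rule, 3.36-fold at 12 h and 5.35-fold at 24 h. Floored replicates have no spread, which lowers the SE that all groups share. In the same fit 25.7%, 17.1% and 23% of 257 tested miRNAs passed, and the single knockout array at 24 h was assumed to vary like the others. Without the knockout 24 h replicate 1 array, miR-99a again passed untreated (-2.19, adjusted p = 0.000059) and at 12 h (adjusted p = 0.00058, with both knockout arrays at the floor), whereas the 24 h difference was 0.40 (adjusted p = 0.11).

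For miR-100, all knockout arrays lay below all wild type arrays untreated and at 12 h. The differences were -0.74 (SE 0.36, adjusted p = 0.33) and -1.14 (SE 0.36, adjusted p = 0.13). Within scans they were -0.75 and -0.72 untreated and -1.12 and -1.17 at 12 h. The 12 h value passed without the knockout 24 h replicate 2 array (-1.11, adjusted p = 0.017), without its partner (-1.28, adjusted p = 0.036), and when only the 95 miRNAs detected on all arrays were tested (adjusted p = 0.049). At 24 h the difference was -0.14, and -0.61 (adjusted p = 0.18) without the knockout 24 h replicate 2 array, and the scans gave -0.69 and 0.41. For miR-99b the genotype differences were -0.0058 untreated (95% interval -0.51 to 0.50), 0.00061 at 12 h and 0.03 at 24 h, the last 0.36 (adjusted p = 0.15) without the knockout 24 h replicate 2 array. For miR-125a-5p they were -0.18 (95% interval -0.54 to 0.19), -0.17 and -0.01, the last 0.16 (adjusted p = 0.55) without that array.

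**Figure D4:**
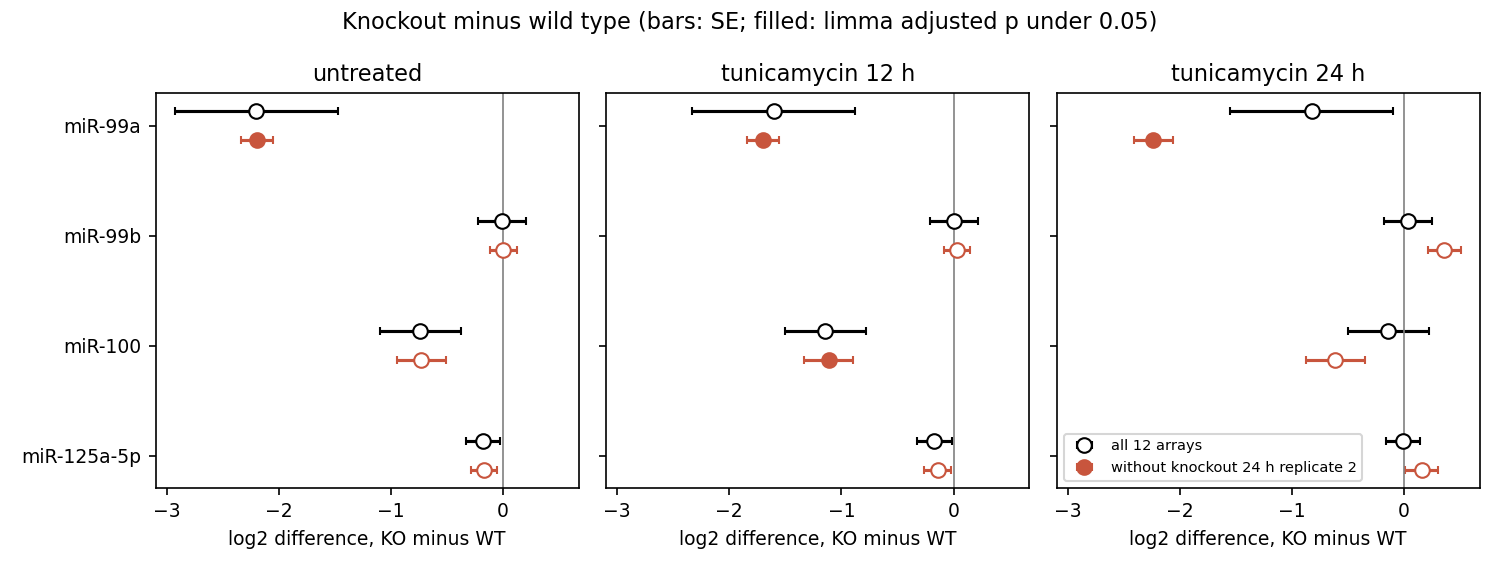
Log2 difference, knockout minus wild type (horizontal axis), of the 4 miRNAs in 3 conditions, from all 12 arrays (black) and without the knockout 24 h replicate 2 array (red); bars are 1 SE of the limma fit and filled points have an adjusted p under 0.05. For miR-99a the untreated difference is -2.20 and -2.19 in the 2 fits while its SE is 0.73 and 0.14; its red points at 12 h and 24 h are differences from the floor.

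In the pair test of the genotype difference, 0 of 6 pairs passed with all arrays. miR-99a differed from miR-99b by -1.55, from miR-125a-5p by -1.42 and from miR-100 by -0.87, with miR-99a at the floor on 3 of 6 knockout arrays, each at an exact permutation p of 0.028 and an adjusted p of 0.056. When the knockout 24 h replicate 2 array was left out, 6 of 6 pairs passed. The 3 pairs with miR-99a then had an adjusted permutation p of 0.011, but on 3 of the 5 knockout arrays left miR-99a was not detected and stood at the floor, so the size of these differences depends on the floor and is not given. The pair of miR-99b and miR-125a-5p, at 0.18, had an adjusted p of 0.037.

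The neighbours from the same clusters moved in different ways. Of the 14 listed strands of these precursors 10 were on the array and 6 were tested, of which 1 passed at 12 h in wild type and 2 in knockout, all falls, beside 50.8% and 49.2% of all tested miRNAs. At 24 h 2 of 6 passed in wild type, 1 up and 1 down, beside 17.6%, and 0 of 6 in knockout, beside 14.1%. miR-125b-5p, encoded with miR-100 and again with miR-99a, went from 11.57 and 11.61 to 10.75 and 10.67 at 12 h in wild type and from 11.26 and 11.33 to 10.37 and 10.16 in knockout. Its falls of -0.88 (limma adjusted p = 0.0031) and -1.02 (limma adjusted p = 0.0018) passed, as did -0.67 at 24 h in wild type (limma adjusted p = 0.0232). The 24 h fall missed the threshold without wild type untreated replicate 1 or 2, wild type 24 h replicate 2 or knockout untreated replicate 2, at adjusted p from 0.0514 to 0.124. let-7e, encoded between miR-99b and miR-125a, stood at 9.09 and 9.10 untreated and at 10.17 and 9.63 at 24 h in wild type. Its rise of 0.81 passed narrowly (SE 0.22, limma adjusted p = 0.0476), at a time when miR-99b was at -0.42 and miR-125a-5p at 0.07. It kept its direction but missed the threshold after quantile normalization (adjusted p = 0.056), with outlier spots kept (adjusted p = 0.0562) and under 4 other settings. It also missed it without either untreated array of either genotype, wild type 12 h replicate 1, wild type 24 h replicate 1 or knockout 24 h replicate 1, at adjusted p from 0.0641 to 0.190. let-7c is encoded at 2 loci, 1 of them with miR-99a, and its signal was not divided between them. The interaction of genotype and treatment for let-7c at 12 h was 0.57 and missed the threshold (limma adjusted p = 0.284). let-7c fell by 0.65 at 12 h in knockout (limma adjusted p = 0.00993) and differed by -0.09 in wild type. Without knockout untreated replicate 1 or 2 its adjusted p was 0.0523 or 0.0564. miR-99b*, the other strand of the miR-99b precursor, was detected on both knockout 12 h arrays and 1 wild type 12 h array and on no other.

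The deposited table reads differently for miR-100. Its value per miRNA equals the log2 of the scanner software's total, and that total was not the sum of the miR-100 probes on 6 of 12 arrays. On those arrays it equalled, within 0.01, the total of another miRNA, let-7i, plus 1 of the 2 miR-100 probes. On the wild type 12 h arrays the deposited totals were 178 and 353, made of 170 and 334 for let-7i and 7.60 and 18.7 for a miR-100 probe, while the probe totals of miR-100 itself summed to 9.77 and 25.4. On the knockout 12 h arrays the totals were 234 and 498 against probe sums of 5.67 and 18.0. The other 2 such arrays were replicate 1 at 24 h of each genotype, and no untreated array was among them. Taken as deposited and without scaling, miR-100 was thus 1.04 higher at 12 h in wild type and 1.498 higher in knockout, and after scaling 2.48 and 3.05 higher, with no pass by limma (adjusted p = 0.17 and 0.11). miR-99b was affected on 1 array, wild type 24 h replicate 1, where 19.7 was made of 13.4 for 1 probe and 6.37 for the miR-99a total. miR-99a itself lacked a probe in its total on 6 arrays, and miR-125a-5p was the sum of its probes on all 12. Totals above the sum of a miRNA's own probes were common, from 27.3% to 40% of detected miRNAs on an array.

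**Figure D5:**
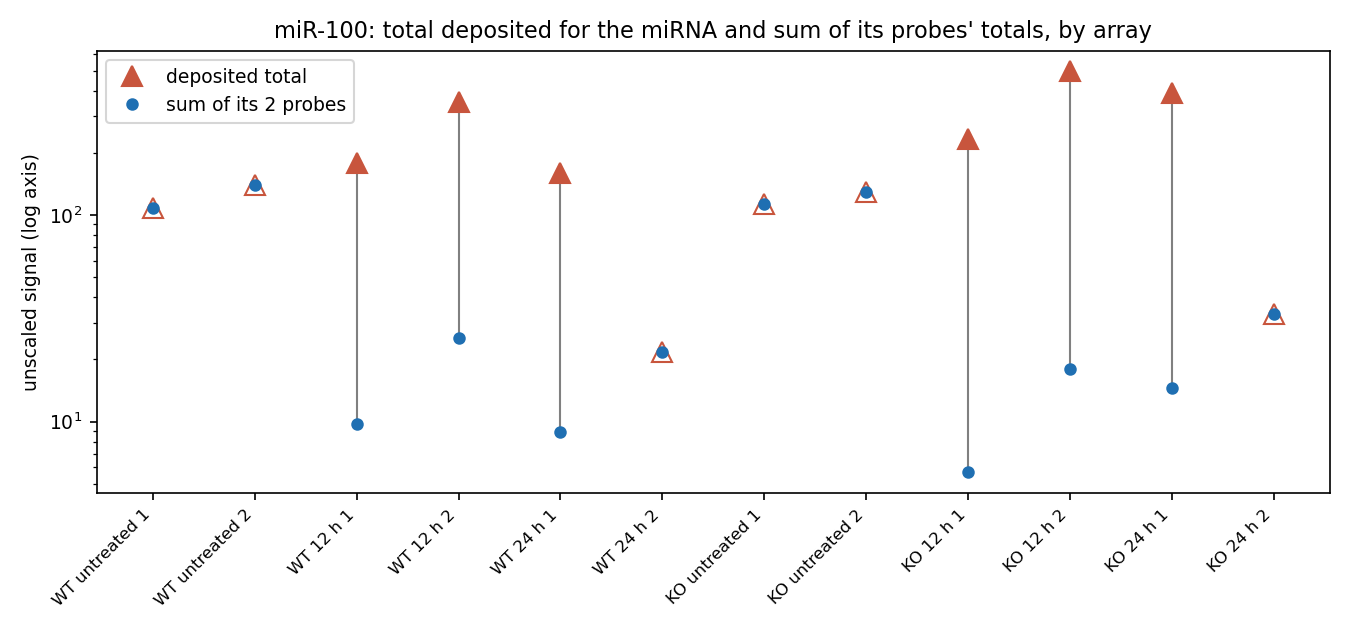
Unscaled signal of miR-100 (vertical log axis) on the 12 arrays; triangles are the total deposited for miR-100, filled where it holds another miRNA's total, and circles the sum of its 2 probes' totals. The 6 filled triangles are all on tunicamycin arrays, for example 234 against 5.67 on knockout 12 h replicate 1.

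Among 92 other miRNAs detected on every array, miR-100 followed miR-30e most closely over the 12 arrays (Pearson r = 0.95), then miR-15a (0.92) and miR-324-5p (0.91). miR-99b was nearest to miR-331-3p (0.92), miR-96 (0.85) and miR-125b-5p (0.85). The closest to miR-125a-5p were miR-25 (0.83), let-7g (0.83) and miR-151-5p (0.80), and to miR-99a miR-148a, miR-31 (0.81 each) and miR-155 (0.77). Within the group miR-99b correlated at 0.66 with miR-100, 0.64 with miR-125a-5p and -0.04 with miR-99a. These values describe arrays that share scaling, slide and replicate, and are given without a test.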

How the data were processed

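Total RNA from 12 cultures was labelled with Cy3 and hybridised to Agilent 1-colour mouse miRNA arrays. The submitters' processing notes name Agilent Feature Extraction 10.7.1.1 as the software with which the authors turned scans into spot intensity, and gProcessedSignal is the deposited background-corrected intensity. The deposited series table holds log2 values, which matched the log2 of the software's total per miRNA within 1.15e-06. Per the file headers, the software also gives totals per probe.

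From gProcessedSignal, non-control spots without an outlier flag were averaged per probe and the probes summed per miRNA. Arrays were scaled to an equal 75th percentile of the 95 mouse miRNAs detected on all 12 arrays, floored at the 5th percentile of detected signals and put on the log2 scale. The 256 of 611 miRNAs detected on both arrays of a group entered a single limma 3.58.1 fit (R 4.3.3, data.table version 1.17.8) of 6 groups with an intensity trend, with Benjamini-Hochberg adjustment over all tested and a threshold of 0.05. Pairs of members were tested by exact permutation, and every adjusted p given for a pair is from that test, adjusted over 6 pairs. Every other adjusted p in the text is from the limma fit or its alternatives. The number of arrays, 2 per group, limits the precision. The scripts were tested on simulated data.

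Normexp ran on gMedianSignal with gBGMedianSignal as its background, and gMeanSignal was not used here. Alternatives were other scalings, background corrections, filters, probes, blocks, the deposited table and each array left out. Named miRNAs are the 4 members, the miRNAs of their precursors and clusters, and for each member the 3 closest by Pearson correlation. The members and lists were chosen with earlier results of these data known. Figures used Python 3.11.15 and matplotlib 3.10.9.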

Additional observations from a re-analysis of the deposited data

Results flagged for a closer look

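The deposited table, which the main limma fit does not use, showed the opposite direction for miR-100 at 12 h. Taken without scaling, its values were 1.04 higher on the log2 scale at 12 h than untreated in wild type and 1.498 higher in knockout. On all 4 arrays at 12 h the deposited total held the total of let-7i, and on none of the 4 untreated arrays did it hold another total. The sum of the miR-100 probes on the same arrays is given above.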

How the results depend on the processing

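The 12 h falls of miR-100 and miR-99b kept their direction in both genotypes under every scaling, filter and block tried and whichever array was left out. They turned under normexp with an offset of 50, and miR-100 also turned in the totals. The number of members past the threshold at 12 h was 3 in both genotypes, miR-125a-5p added, after quantile normalization, with the percentile over all mouse miRNAs and with the replicate block. It was 1 under normexp at 12 h in wild type, 1 at 12 h in knockout, 1 at 24 h in wild type and 2 at 24 h in knockout, 0 at 12 h in both genotypes with an offset of 1, and 0 at 12 h in wild type from the deposited table. At 12 h between genotypes it was 1 when only miRNAs detected on all arrays were tested. The passes under normexp with an offset of 50 were rises of miR-99a, joined at 24 h in knockout by a rise of miR-100. Differing pairs under tunicamycin numbered 0 after quantile normalization, 5 under normexp and 1 with an offset of 1, and by genotype 5 under normexp with either offset. Leaving out 1 array at a time gave 0 to 3 members at 12 h in wild type, 1 to 3 at 12 h in knockout, 0 to 1 at 24 h in wild type, at 24 h in knockout, for the difference of the 24 h responses, between untreated genotypes and between genotypes at 24 h, and 0 to 2 between genotypes at 12 h. Differing pairs then numbered 2 to 4 under tunicamycin and 0 to 6 by genotype. Replicate numbers go with scans within each slide, and the labels do not say that they mark shared cultures. Replicate differences of 15 pairs of groups correlated at -0.49 to 0.82, with 7 over 0.1, so a pairing of the arrays was not established. With the replicate block miR-125a-5p passed at 12 h in both genotypes, no other member's call changed, miR-100 at 12 h had an adjusted p of 0.0105 in wild type and 0.00433 in knockout, and 130 and 127 tested miRNAs passed at 12 h. Of all tested miRNAs the number past the threshold ranged, over the settings and left-out arrays that kept the filter on dim miRNAs, from 85 to 192 at 12 h in wild type (130 above), 76 to 183 at 12 h in knockout (126), 16 to 191 at 24 h in wild type (45), 5 to 188 at 24 h in knockout (36), 0 to 41 and 0 to 36 for the differences of the 12 h and 24 h responses (15 and 12), and 8 to 66, 4 to 49 and 2 to 59 between genotypes untreated, at 12 h and at 24 h (32, 13 and 20). Testing only the miRNAs detected on all arrays, it was 40 at 12 h in wild type and 48 in knockout, 17 and 15 at 24 h, 1 for each difference of responses, and 11, 12 and 15 between genotypes. Values that changed sign follow, and the cause was not tested. With the percentile taken over all mouse miRNAs, miR-99b was 0.25 for the difference of the 12 h responses and 0.39 between untreated genotypes. miR-100 was 0.33 between genotypes at 24 h. miR-125a-5p was 0.25 for the difference of the 12 h responses, 0.21 between untreated genotypes and 0.46 between genotypes at 24 h. After quantile normalization, miR-99b was 0.023 for the difference of the 12 h responses and 0.027 between untreated genotypes. miR-100 was 0.25 between genotypes at 24 h. miR-125a-5p was 0.16 between genotypes at 12 h and 0.036 between genotypes at 24 h. Under normexp with an offset of 50, miR-99a was 0.89 at 12 h in wild type, 0.85 at 12 h in knockout, 0.96 at 24 h in wild type and 0.040 for the difference of the 12 h responses. miR-99b was 0.44 at 12 h in wild type, 0.20 at 12 h in knockout, 0.53 at 24 h in wild type, 0.41 at 24 h in knockout, 0.24 for the difference of the 12 h responses, 0.12 for the difference of the 24 h responses, -0.42 between genotypes at 12 h and -0.31 between genotypes at 24 h. miR-100 was 0.44 at 12 h in wild type, 0.40 at 12 h in knockout, 0.51 at 24 h in wild type and 0.79 at 24 h in knockout. Pair differences were -0.14 for miR-99b and miR-100 under tunicamycin, 0.37 for miR-99b and miR-125a-5p under tunicamycin, -0.17 for miR-99b and miR-125a-5p by genotype and 0.51 for miR-100 and miR-125a-5p under tunicamycin. With the offset of 1, chosen after seeing the data, miR-99a was 0.51 at 12 h in wild type, 0.19 at 12 h in knockout, 0.36 at 24 h in wild type and 0.31 for the difference of the 12 h responses. miR-99b was 0.44 for the difference of the 12 h responses, 0.12 for the difference of the 24 h responses, -0.51 between genotypes at 12 h and -0.19 between genotypes at 24 h. miR-100 was 0.044 at 24 h in knockout. miR-125a-5p was 0.0078 for the difference of the 12 h responses. Pair differences were -0.12 for miR-99b and miR-125a-5p by genotype. From the software's totals and from the deposited table, miR-99b was 0.11 for the difference of the 12 h responses, -0.17 between genotypes at 12 h and -0.057 between genotypes at 24 h. miR-100 was 2.48 at 12 h in wild type, 3.05 at 12 h in knockout, 0.80 at 24 h in wild type, 1.77 at 24 h in knockout, -0.57 for the difference of the 12 h responses and 0.18 between genotypes at 24 h. miR-125a-5p was -0.20 at 24 h in wild type, 0.11 for the difference of the 12 h responses and 0.015 between genotypes at 24 h. Pair differences were -2.27 and -2.10 in turn for miR-99a and miR-100 under tunicamycin, -2.75 for miR-99b and miR-100 under tunicamycin and 2.32 for miR-100 and miR-125a-5p under tunicamycin. The deposited table also gave miR-99a as 0.37 at 12 h in knockout, 0.0099 between genotypes at 12 h and 0.32 between genotypes at 24 h. With outlier spots kept, miR-99b was 0.023 for the difference of the 12 h responses and -0.035 between genotypes at 12 h. miR-125a-5p was 0.025 for the difference of the 12 h responses and 0.021 between genotypes at 24 h. From the brightest probe alone, miR-99a was 0.021 at 24 h in wild type. miR-99b was 0.068 for the difference of the 24 h responses, 0.033 between untreated genotypes and -0.034 between genotypes at 24 h. Pair differences were -0.040 for miR-99a and miR-125a-5p under tunicamycin. With a floor of 1, miR-99a was -0.29 at 24 h in knockout, 2.46 for the difference of the 12 h responses and 0.11 for the difference of the 24 h responses. Pair differences were -0.52 for miR-99a and miR-99b under tunicamycin and -0.99 for miR-99a and miR-125a-5p under tunicamycin. Over single arrays left out, miR-99a ranged from -0.32 to 0.081 at 24 h in wild type, -0.18 to 2.33 at 24 h in knockout, -2.59 to 0.046 for the difference of the 24 h responses and -2.24 to 0.40 between genotypes at 24 h. miR-99b ranged from -0.085 to 0.15 and -0.36 to 0.35 for the differences of the 12 h and 24 h responses, and from -0.084 to 0.072, -0.14 to 0.030 and -0.34 to 0.36 between genotypes untreated, at 12 h and at 24 h. miR-100 ranged from -0.61 to 0.28 between genotypes at 24 h. miR-125a-5p ranged from -0.023 to 0.29 at 24 h in wild type, -0.071 to 0.44 at 24 h in knockout, -0.090 to 0.15 and -0.38 to 0.063 for the differences of the responses, and -0.23 to 0.22 between genotypes at 24 h. The pair of miR-99a and miR-125a-5p ranged from -0.22 to 0.40 under tunicamycin. Low signal over background limits miR-99a most, since it was not detected on 3 of 12 arrays.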

Other observations

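Other strands of the same precursors were mostly dim. miR-99b*, on the 3 arrays where it was detected, was at 4.02 and 4.52 on the knockout 12 h arrays and at 6.20 on wild type 12 h replicate 2. miR-125a-3p, from the precursor of miR-125a-5p, was detected on 7 of 12 arrays with a highest level of 4.71. miR-125b-3p, miR-125b*, let-7a* and let-7c-1* were detected on 0 of 12 arrays. miR-125b-5p correlated over the 12 arrays at 0.91 with miR-100 and at 0.40 with miR-99a, and it is encoded in the cluster of each. Without the knockout 24 h replicate 2 array, the nearest miRNAs of miR-99a had correlations of 0.87 for miR-148a, 0.93 for miR-31 and 0.90 for miR-155.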
